A study of Capra hircus with 9 samples.

Results

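Of 2189 mature miRNA entries counted in the goat submandibular gland, 16 belong to the lymphocyte miRNAs miR-150, miR-155, miR-146 and miR-342. They are every entry that bears one of these 4 numbers directly after "miR-", with any letter, arm or ending. Entries were taken by name, but the families were chosen with earlier results of these data known. There were 4 miR-150, 3 miR-155, 5 miR-146 and 4 miR-342 entries. Of the 16, 8 have the goat prefix chi-, and the other 8 have no goat prefix and end in -x, -y or -z. Tissue of 9 female Lubo goats described as healthy was used, with 3 goats in each of the age groups 1 month, 12 months and 24 months. The animals shared natural light and unrestricted feed, and the labels name no treatment or genetic change. The libraries carry numbers from their labels (1, 2 and 3 at 1 month, 3, 4 and 5 at 12 months, 2, 3 and 5 at 24 months), which name single libraries below. Each library is whole gland tissue, so a lower level can come from fewer cells of a type in the piece sampled or from less of the miRNA per cell. Other differences between the pieces sampled are also possible, and these cannot be told apart.

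A miRNA is a short RNA that pairs through its seed, the bases near its 5′ end, with messenger RNAs and lowers their output. miR-150 is abundant in mature B and T lymphocytes and is known for restraining the transcription factor MYB. miR-155 is induced when lymphocytes and macrophages are activated, and miR-146a and miR-146b are induced by NF-κB signalling and restrain it through TRAF6 and IRAK1. miR-342 is found in several blood lineages and is made from an intron of the gene EVL, and the goat gene MIR342 lies inside EVL in the RefSeq annotation of the assembly ARS1.2. Salivary glands hold resident lymphocytes and plasma cells between the secretory units, while miR-146 and miR-342 are also found outside blood cells.

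The sequences below are those of the entries on which the results turn, as deposited with T for U, with the seed (bases 2 to 8) in capitals. They are grouped by shared seed, because entries of a group differ only outside it.
chi-miR-150: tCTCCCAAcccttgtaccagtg
miR-150-x: gCTCCCAAcccttgtaccagtga
chi-miR-155-5p: tTAATGCTaatcgtgataggggt
miR-155-x: tTAATGCTaatcgtgatagggaa
chi-miR-146a: tGAGAACTgaattccataggtt
chi-miR-146b-5p: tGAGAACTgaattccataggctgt
miR-146-x: tGAGAACTgaattccatagatgg
chi-miR-342-3p: tCTCACACagaaatcgcaccca
miR-342-y: tCTCACACagaaatcgcacccatct
chi-miR-342-5p: aGGGGTGCtatctgtggttgagg

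No entry outside the 4 families carried any of the seeds found among the 16 entries. Positions are counted from 1 at the 5′ end of the first-named entry. chi-miR-150 and miR-150-x differ at the first base (T1G) and miR-150-x runs on by 1 base. chi-miR-155-5p and miR-155-x share their first 21 bases and differ at the last positions (G22A and T23A). chi-miR-146a and chi-miR-146b-5p, which come from separate genes, share their first 20 bases and differ within the shared length by T21C alone. miR-146-x shares 19 first bases with both and differs from chi-miR-146a by G20A and T22G. miR-342-y is the whole of chi-miR-342-3p with 3 more bases. The deposited counts therefore separate these forms by a few bases at their ends, and reads of a family may be split between its entries in a way that the counts alone do not show. For that reason sums over a family are given beside the single entries.

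Library totals ran from 8288492 to 13277448 counts, and the 16 entries took 0.372% to 2.10% of them. Library 2 at 1 month stood apart from its group: miR-142, the miRNA of all blood-forming cells, took 10.6% of its counts (95% Wilson interval 10.55 to 10.58%) against 2.41% (2.40 to 2.42%) and 3.95% (3.94 to 3.97%) in libraries 1 and 3. Library 4 at 12 months stood apart by muscle miRNAs, at 0.247% of counts (0.243 to 0.250%) against 0.0268% (0.0258 to 0.0280%) and 0.0229% (0.0221 to 0.0238%). Such intervals cover counting error only. Library 2 at 1 month was also the highest of its group in miR-181, at 14.1% against 4.19% and 3.05% in libraries 1 and 3. It was the lowest of its group in epithelial, gland and mesenchymal miRNAs, with values given below. Called values that moved by over 1.5 times on leaving out either library are given with and without it.

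Between 1 and 12 months, miR-150 and miR-155 fell most, miR-342 fell less, and miR-146a did not pass the test. Of the 16 entries, 11 had enough counts for the test, and 7 of these 11 fell and 0 rose (edgeR quasi-likelihood test over all 937 entries with sufficient counts, Benjamini-Hochberg adjusted p under 0.05). Over all 937 entries 19.2% were called, with 13.2% lower and 5.98% higher. In the same 7 entries all 12-month libraries lay below all 1-month ones, while 48.5% of all entries had ages that did not overlap and 22.2% of all entries were lower without overlap. The 7 were both tested entries of miR-150, both of miR-155 and all 3 of miR-342, and none of the 4 tested miR-146 entries was among them. Some of these entries are forms of the same miRNA and are not separate evidence. With entries of the same first 18 bases summed, 5 of 7 fell from 1 to 12 months, where 15.3% of all 725 summed entries fell. Between 1 and 24 months 7 of 7 fell, where 19.4% of all fell. The median log2 fold change of the 11 entries was -1.87, against -0.02 over all entries tested. Levels are given as CPM, a count divided by the TMM-scaled library size, fold changes on the log2 scale with the standard error (SE) of the fit, and n is 3 goats at each age.

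chi-miR-150, the miRNA of mature lymphocytes, stood at 1307, 2628 and 2853 CPM in libraries 1, 2 and 3 at 1 month. At 12 months it stood at 172, 91.8 and 183 CPM in libraries 3, 4 and 5, and at 24 months at 176, 132 and 172 CPM in libraries 2, 3 and 5. Every 1-month library lay above every later one, and the later ages overlapped. From a mean of 2263 ± 835 CPM (SD) it fell by 3.93 (SE 0.45, adjusted p = 0.0011) to 149 ± 49.7 CPM at 12 months. Between 1 and 24 months it fell by 3.82 (SE 0.45, adjusted p = 0.000678), to 160.1 ± 24.1 CPM. Across the alternative fits without the replicate block and on leaving out each library, the fall to 12 months ran from -4.48 to -3.55 and always passed. The lowest library rested on 861 counts, or 96.7 unscaled CPM with a 95% Wilson interval of 90.4 to 103, so counting error was small against the spread between goats.

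miR-150-x, the entry with the T1G difference, followed chi-miR-150 at a far lower level. It held 167, 905 and 514 counts in the youngest goats. The 12-month libraries held 7, 28 and 28 counts and the 24-month libraries 9, 38 and 59. It fell by 4.23 (SE 0.86, adjusted p = 0.00751) to 12 months and likewise fell between 1 and 24 months (−3.35, SE 0.82, adjusted p = 0.0157, and 0.055 without library 3 at 24 months). Without library 2 at 1 month the 2 falls were −3.56 and −2.68 and both passed, and without library 5 at 24 months the second was −4.09. Its counts amounted to 0.493% to 3.95% of those of chi-miR-150 with no order by age. The 2 remaining miR-150 entries, miR-150-z with 5 counts and miR-150-y with 2, were seen in library 2 at 1 month alone and were not tested.

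chi-miR-155-5p, the activation-induced miRNA, was led by library 2 at 1 month. Its levels were 432, 1394 and 584 CPM at 1 month, 103, 55.5 and 59.3 CPM at 12 months, and 73.7, 51.7 and 97.6 CPM at 24 months. No later library reached the lowest 1-month one. It fell by 3.47 (SE 0.53, adjusted p = 0.00233) from 803 ± 517 to 72.5 ± 26.3 CPM at 12 months, and was 74.4 ± 23.0 CPM at 24 months (−3.43 against 1 month, SE 0.53, adjusted p = 0.0022). Without library 2 at 1 month the falls to 12 and 24 months were −2.84 and −2.80, and without library 3 at 12 months the first was −4.06. The fall to 12 months passed on leaving out any single library, with an adjusted p of at most 0.0166.

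miR-155-x, which differs in its last bases, stood at 11.7, 53.5 and 13.2 CPM in the youngest goats, at 2.70, 2.13 and 1.80 CPM at 12 months (20 or 21 counts each), and at 3.76, 3.64 and 6.56 CPM in the oldest. It fell by 3.56 (SE 0.66, adjusted p = 0.00497) to 12 months and also between 1 and 24 months (−2.49, SE 0.62, adjusted p = 0.017), the latter with an adjusted p of 0.0596 without library 3 at 24 months. Without library 2 at 1 month the 2 falls were −2.52 (adjusted p = 0.00197) and −1.44 (adjusted p = 0.0228). Summed with chi-miR-155-5p, the second was −3.47. Relative to chi-miR-155-5p it made up 2.26% to 3.84% in the 1-month libraries, 2.63% to 3.85% in the 12-month libraries and 5.10% to 7.03% in the 24-month libraries, so the last age lay above the others. This rested on 39, 32 and 57 counts, and no test was made. The other arm, chi-miR-155-3p, held 7, 40 and 13 counts at 1 month and 8 counts in the 6 later libraries together, too few for the test. The 5p arm outnumbered it by 518 to 1 in summed counts at 1 month.

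**Figure D1:**
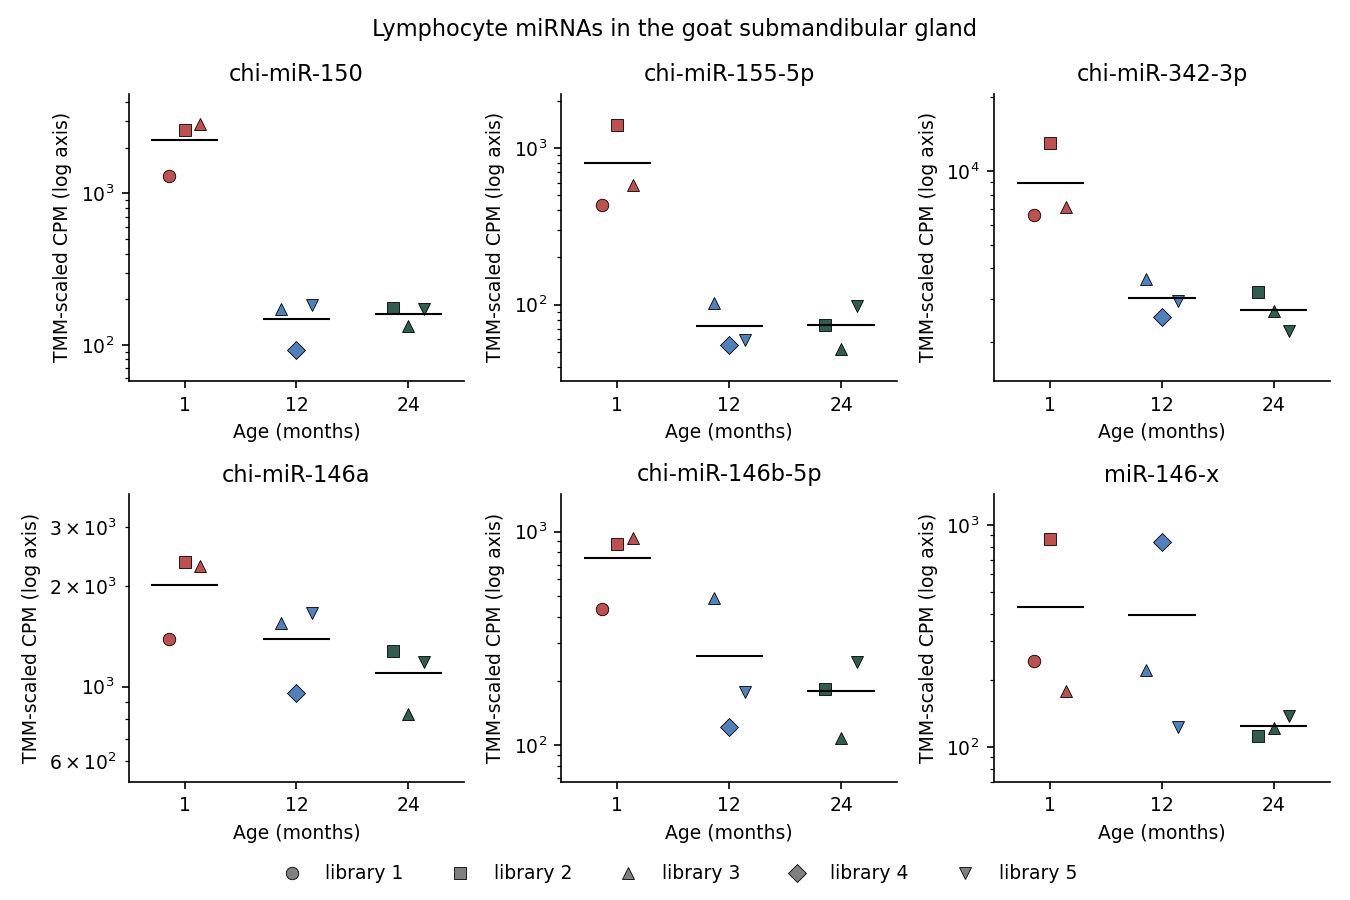
TMM-scaled CPM (log axis) of 6 entries in each of the 9 libraries, by age in months; marker shapes give the library number and horizontal bars the mean of 3 goats. For chi-miR-150, chi-miR-155-5p and chi-miR-342-3p every 1-month library lies above every later one, while for chi-miR-146a the 1-month and 12-month libraries overlap and miR-146-x is high in library 2 at 1 month and library 4 at 12 months.

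chi-miR-342-3p was the most abundant of the 16 entries and ranked 37 among all entries by total counts. It stood at 6618, 12939 and 7115 CPM at 1 month, at 3618, 2538 and 2945 CPM at 12 months, and at 3203, 2674 and 2212 CPM at 24 months. The 1-month libraries again lay above all others, with library 2 the highest. It fell by 1.55 (SE 0.36, adjusted p = 0.0142) from 8891 ± 3515 to 3034 ± 545 CPM at 12 months, and reached 2696 ± 496 CPM at 24 months (−1.72 against 1 month, SE 0.36, adjusted p = 0.00845). Without library 4 at 12 months the fall to 12 months was -1.42 and did not pass (adjusted p = 0.0739).

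miR-342-y, the form longer by 3 bases, fell by 2.12 (SE 0.49, adjusted p = 0.0138) from 295 to 924 CPM in the 1-month libraries to 95.7 to 196 CPM at 12 months. As it holds the whole of chi-miR-342-3p, it is no separate evidence. Its counts were 10.4%, 7.14% and 4.14% of those of chi-miR-342-3p in the youngest goats. The 12-month libraries gave 4.02%, 7.74% and 3.25% and the 24-month libraries 4.07%, 8.11% and 5.55%. The ages overlapped in this proportion. The 5p arm, chi-miR-342-5p, was rare, at 152, 478 and 125 counts at 1 month and 35 to 71 counts later. It fell by 1.87 (SE 0.57, adjusted p = 0.0419) to 12 months, a call lost without library 2 at 1 month (−1.002, adjusted p = 0.0835), without library 3 (0.0796) or 4 (0.114) at 12 months, or under limma voom (0.0614). Between 1 and 24 months it fell by 1.77 (SE 0.57, adjusted p = 0.0417), a call lost without library 2 at 1 month, library 4 at 12 months or any one of the 24-month libraries (adjusted p from 0.0591 to 0.103), under limma voom (0.0610) and with the libraries of these 2 ages only (0.0652). Without library 2 at 1 month the value was −0.900. In summed counts the 3p arm outnumbered the 5p arm by 456, 546 and 475 to 1 at 1, 12 and 24 months. miR-342-x held 24 counts over 4 libraries and was not tested.

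chi-miR-146a, the feedback brake of NF-κB signalling, did not pass in any comparison. Its levels were 1385, 2356 and 2298 CPM at 1 month, 1551, 959 and 1664 CPM at 12 months, and 1275, 831 and 1183 CPM at 24 months. Library 1 at 1 month lay within the 12-month range, and all 24-month libraries lay below all 1-month ones. The change was −0.53 (SE 0.36, adjusted p = 0.294) from 1 to 12 months and −0.88 (SE 0.36, adjusted p = 0.0886) from 1 to 24 months. The latter passed with library size as the only scaling (−1.12, adjusted p = 0.0371).

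chi-miR-146b-5p stood at 436, 873 and 936 CPM at 1 month, at 491, 121 and 177 CPM at 12 months, and at 184, 108 and 246 CPM at 24 months. Library 3 at 12 months lay above library 1 at 1 month, and the 24-month libraries lay below all 1-month ones. The 12-month change of −1.51 (SE 0.56, adjusted p = 0.0735) did not pass, and without library 3 at 12 months it was −2.60 (adjusted p = 0.0205). It also passed under library size alone (0.0465), no filter (0.00689), DESeq2 (0.0274) and limma voom (0.0463). Between 1 and 24 months it fell by 2.06 (SE 0.57, adjusted p = 0.0259). That call was lost without library 2 or 3 at 1 month (0.0539 and 0.0577) or without library 2 or 3 at 24 months (0.0551 and 0.0849).

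The 3p arm chi-miR-146b-3p stood at 2.62, 10.6 and 6.07 CPM in libraries 1, 2 and 3 of the youngest age, at 2.70, 0.960 and 1.80 CPM at 12 months, and at 0.964, 0.227 and 2.07 CPM at 24 months, where it rested on 10, 2 and 18 counts. It showed −1.82 (SE 0.77, adjusted p = 0.0999) at 12 months, which passed with no filter (0.0427), and fell by 2.55 (SE 0.80, adjusted p = 0.0382) between 1 and 24 months. The last call was lost with the libraries of these 2 ages only (0.0520) and on leaving out any of 4 single libraries: library 2 or 3 at 1 month (adjusted p = 0.0802 and 0.0614) and library 2 or 3 at 24 months (0.0990 and 0.106). Without library 5 at 24 months it passed at −3.47. miR-146-y held 4 counts in library 2 at 1 month and was not tested.

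miR-146-x was high in 1 library at each of the younger ages. It stood at 244, 863 and 178 CPM at 1 month, at 222, 840 and 123 CPM at 12 months, and at 112, 122 and 138 CPM at 24 months. The 2 high values were library 2 at 1 month and library 4 at 12 months, the libraries that also stood apart by miR-142 and by muscle miRNAs. The part of either feature in this value was not tested. The 12-month change was −0.12 (SE 0.72, adjusted p = 0.918), with 0.88 (adjusted p = 0.396) without library 2 at 1 month and −1.29 (adjusted p = 0.192) without library 4 at 12 months. Between 1 and 24 months it showed −1.79 (SE 0.75, adjusted p = 0.09), which passed under DESeq2 (−1.88, adjusted p = 0.0335) and with no filter (−2.03, adjusted p = 0.00104). In library 4 at 12 months miR-146-x held 7872 counts beside 8986 of chi-miR-146a, and made up 43.7% of all miR-146 counts, against 5.22% to 21.0% in the other 8 libraries. In the same library chi-miR-146a and chi-miR-146b-5p were at their lowest for 12 months.

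**Figure D2:**
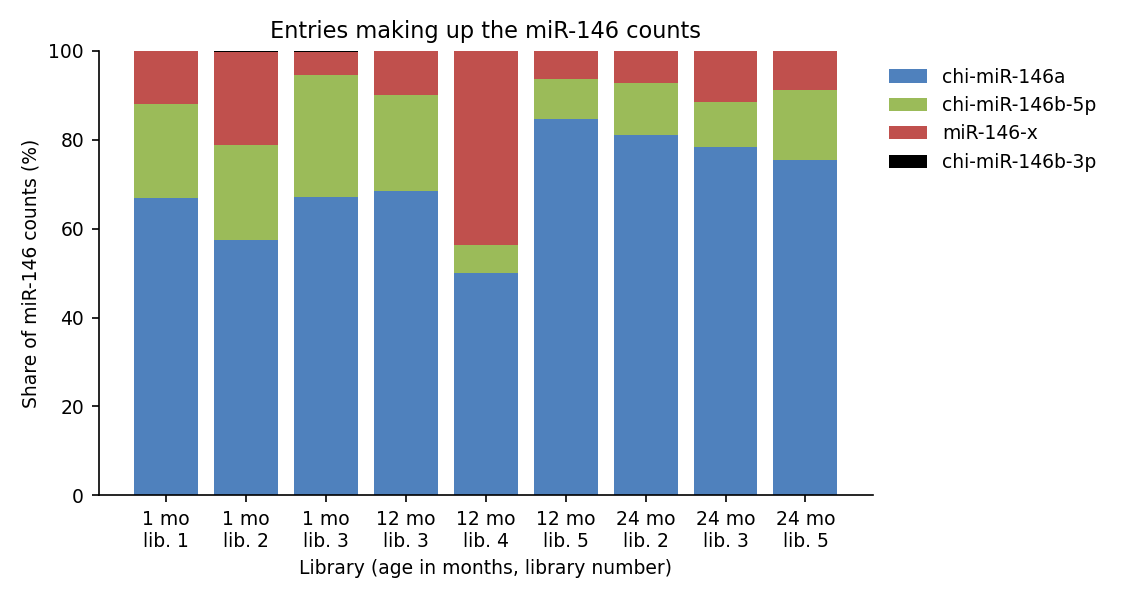
Share of all miR-146 counts (%) taken by each entry in the 9 libraries, ordered by age; bars are single libraries. miR-146-x takes 43.7% in library 4 at 12 months and 21.0% in library 2 at 1 month, and chi-miR-146b-5p takes more in the 1-month libraries and in library 3 at 12 months than in the others.

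Because these forms share their first 19 bases, the entries with the same first 18 bases were also summed before the fit. The sum of chi-miR-146a, chi-miR-146b-5p and miR-146-x then fell by 1.28 between 1 and 24 months (adjusted p = 0.0204) and showed −0.75 (adjusted p = 0.122) between 1 and 12 months. As a share of all counts, the miR-146 entries together made up 0.3496 ± 0.0923% in the youngest goats, then 0.199 ± 0.0158% and lastly 0.130 ± 0.0265% in the oldest. The 3 ages did not overlap in this sum. Each pair of ages had an exact two-sided permutation p of 0.1 (adjusted p = 0.133 over the 12 family shares tested), which is the smallest p that 3 against 3 can give. Among goat-named entries alone, the step from 12 to 24 months shrank from −0.0685 to −0.0399 percentage points (exact permutation p = 0.3). The proportion of the 2 goat-named 5′ forms differed between goats: chi-miR-146a outnumbered chi-miR-146b-5p by 2.78 ± 0.37 times in the 1-month libraries, by 6.82 ± 3.26 times in the 12-month libraries and by 6.48 ± 1.49 times in the 24-month libraries (SD, n = 3). Library 3 at 12 months, at 3.16 times, lay in the 1-month range.

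From 12 to 24 months none of the 11 tested entries was called, as among all 937 entries (0%). At an unadjusted p under 0.05, 1 of the 11 and 40 of the 937 were found by edgeR, and DESeq2 and limma voom called 0 of 937 each. The 1 was miR-146-x (−1.67, SE 0.74, unadjusted p = 0.0465), which is low in all 24-month libraries and high in library 4 at 12 months. chi-miR-150 stood at 0.11 (SE 0.40), chi-miR-155-5p at 0.04 (SE 0.49), chi-miR-342-3p at −0.17 (SE 0.35) and chi-miR-146a at −0.34 (SE 0.36). The later ages did not overlap in 1 of the 11 entries, miR-155-x, which was higher at 24 months (1.07, SE 0.62, unadjusted p = 0.111), and in 9.82% of all entries. None of the 11 was lower without overlap, as 3.74% of all entries were.

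Between 1 and 24 months 9 of the 11 entries fell and 0 rose, where 26.3% of all entries were called, with 17.5% lower and 8.75% higher. The 9 were the 7 of the earlier comparison with chi-miR-146b-5p and chi-miR-146b-3p, and the 2 not called were chi-miR-146a and miR-146-x. In all 11 the 24-month libraries lay wholly below the 1-month ones, where 47.2% of all entries had ages that did not overlap and 25.8% were lower without overlap. Both comparisons use the same 1-month libraries, so their agreement is no added evidence. Over the 3 ages together, 8 of the 11 differed (20.5% of all entries): the 7 and chi-miR-146b-5p. Without library 3 at 24 months 4 of 12 tested entries fell between 1 and 24 months, and the share of all entries that fell was also lower, at 8.53%. With library 2 at 1 month and library 4 at 12 months both left out, a choice made after seeing the data, 6 of 11 fell to 12 months and 7 of 11 to 24 months, where 9.54% and 16.5% of all entries fell.

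**Figure D3:**
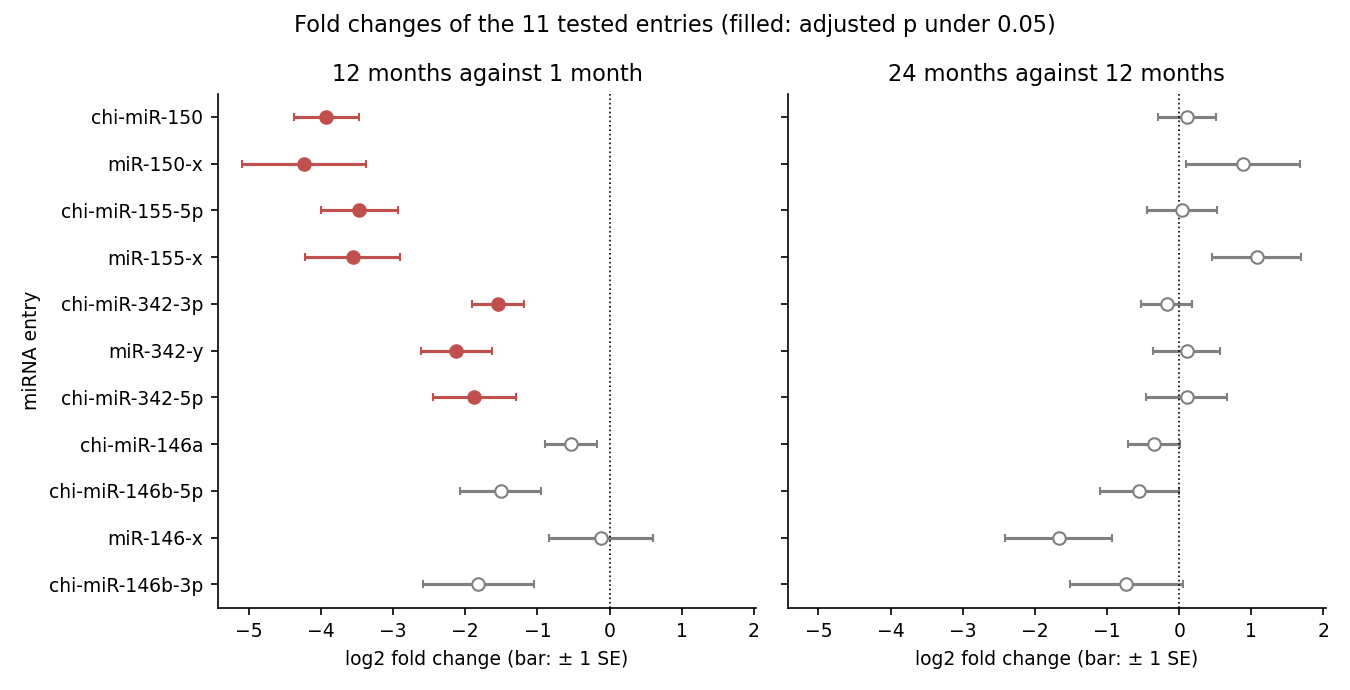
log2 fold change of the 11 tested entries with bars of 1 SE in each direction, for 12 months against 1 month and for 24 months against 12 months; filled points passed an adjusted p of 0.05. The miR-150 and miR-155 entries lie between −4.23 and −3.47 in the first comparison, the miR-342 entries between −2.12 and −1.55, and no entry passed in the second.

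The order of the families changed between the ages. At 1 month the means ran from chi-miR-342-3p (8891 CPM) over chi-miR-150 (2263) and chi-miR-146a (2013) to chi-miR-155-5p (803) and chi-miR-146b-5p (748), and apart from chi-miR-342-3p each neighbour in this order overlapped the next. At 12 months the order was chi-miR-342-3p (3034), chi-miR-146a (1391), chi-miR-146b-5p (263), chi-miR-150 (149) and chi-miR-155-5p (72.5), where the last 3 overlapped from neighbour to neighbour. The order at 24 months was the same, with means of 2696, 1096, 179, 160.1 and 74.4 CPM, and there chi-miR-146b-5p and chi-miR-150 were the neighbours that overlapped. Efficiencies of adapter ligation differ between miRNAs, so the order of levels between miRNAs is that of counts.

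Ratios within a library need no scaling factor and show the unequal fall directly. The log2 ratio of all miR-150 to all miR-146 counts went from −0.50 ± 0.22 at 1 month to −3.82 ± 0.48 at 12 months. That of miR-155 to miR-146 went from −2.08 ± 0.52 to −4.83 ± 0.35. Relative to miR-342, miR-150 went from −2.06 ± 0.61 to −4.45 ± 0.41 and miR-155 from −3.64 ± 0.39 to −5.45 ± 0.26. The ratio of miR-146 to miR-342 went from −1.57 ± 0.39 to −0.63 ± 0.11. In each of these 5 pairs the 1-month and 12-month libraries did not overlap (exact two-sided permutation p = 0.1, the smallest possible, adjusted p = 0.12 over the 6 pairs). The sixth pair, miR-150 against miR-155, overlapped at 1.58 ± 0.69 and 1.01 ± 0.51 (exact permutation p = 0.3, adjusted p = 0.3). From 12 to 24 months miR-150 and miR-155 stood higher against miR-146 by 0.74 and 0.66 without overlap (exact permutation p = 0.1, adjusted p = 0.3). At 24 months the ratio of miR-146 to miR-342 was −1.04 ± 0.44 and overlapped the 1-month libraries (exact permutation p = 0.2, adjusted p = 0.24). The ratios of miR-150 and miR-155 to miR-146 and to miR-342 did not overlap between 1 and 24 months (exact permutation p = 0.1, adjusted p = 0.15).

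The 4 families were also set against miR-142, present in all blood-forming cells and counted here as miR-142-x and miR-142-y. Library 2 at 1 month held 41.3 miR-142 counts for each miR-150 count, against 15.5 and 11.2 in libraries 1 and 3, and the 6 later libraries held 6.56 to 13.1. On the log2 scale miR-150 stood at −4.27 ± 0.98 against miR-142 at 1 month and −3.13 ± 0.51 at 12 months, which overlapped (difference 1.14, exact permutation p = 0.2, adjusted p = 0.267 over 12 tests, and 0.59 without library 2 at 1 month). miR-155 went from −5.85 ± 0.38 to −4.14 ± 0.47, miR-342 from −2.21 ± 0.77 to 1.31 ± 0.22, and miR-146 from −3.77 ± 0.86 to 0.69 ± 0.12. These 3 did not overlap between 1 and 12 months (exact permutation p = 0.1, the smallest possible, adjusted p = 0.15). Between 1 and 24 months none of the 4 families overlapped (exact permutation p = 0.1, adjusted p = 0.15), with a difference of 1.47 for miR-150. miR-342 and miR-146 went from below miR-142 to above it in every library.

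**Figure D4:**
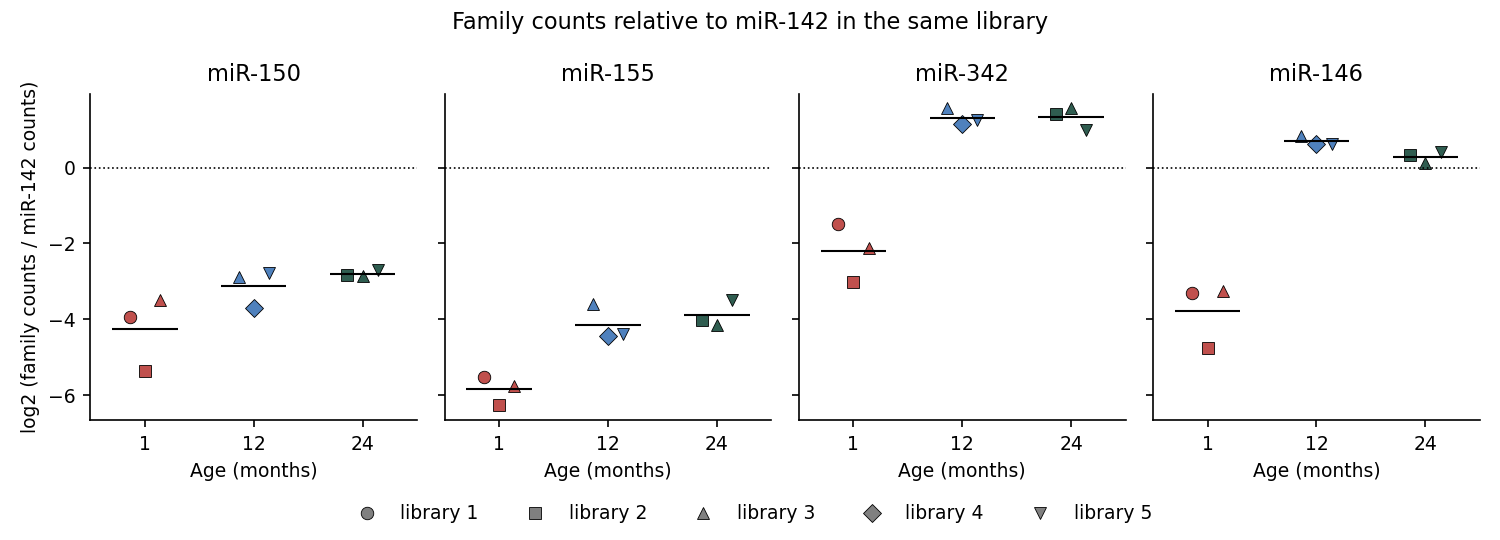
log2 ratio of the summed counts of each family to the summed miR-142 counts of the same library, by age in months, with marker shapes for library numbers, bars for means of 3 goats and a dotted line at equal counts. All 1-month libraries lie below the line for miR-342 and miR-146 and all later ones above it, while miR-150 and miR-155 stay below it at every age.

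miR-342 was the largest family in all 3 of the 1-month libraries, but which library was highest differed between families. As unscaled shares, miR-150 was highest in library 3 (0.352% of counts, 95% Wilson interval 0.348 to 0.355%), ahead of library 2 (0.256%, 0.253 to 0.258%) and library 1 (0.156%, 0.154 to 0.158%). miR-155 was highest in library 2 (0.137%, 0.135 to 0.139%), ahead of library 3 (0.0728%, 0.0713 to 0.0744%) and library 1 (0.0525%, 0.0511 to 0.0539%). miR-342 was highest in library 2 as well (1.32%, 1.31 to 1.32%), with 0.903% (0.898 to 0.909%) in library 3 and 0.864% (0.859 to 0.8699%) in library 1. Library 1 was the lowest for all 4 families.

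Entries of 5 other lists of miRNAs, of which miR-142 and miR-223 are the blood cell markers, moved in the same comparison. In whole tissue the cells that held them are not known. Of miR-142 and the myeloid miR-223, 5 of 5 tested entries fell from 1 to 12 months (median −4.92), led in counts by miR-142-x. The miR-181 family, known for tuning receptor signals in developing lymphocytes, had 3 of 6 lower (median −2.58). miR-17-92 and its paralogs, which promote proliferation, had 29 of 34 lower (−2.47). miR-15/16, which restrain the cell cycle, with miR-195 and miR-497 had 7 of 18 lower (−1.44), and miR-128 2 of 3 (−5.02). Over all 937 entries, 13.2% were lower and 5.98% higher from 1 to 12 months. In none of these lists did an entry rise, and from 12 to 24 months none was called. The most abundant entries by list were miR-142-x (−5.42, SE 0.63, adjusted p = 0.0011), miR-181-x (−3.69, SE 0.63, adjusted p = 0.00397), chi-miR-92a-3p (−2.23, SE 0.51, adjusted p = 0.0138), chi-miR-128-3p (−5.02, SE 0.85, adjusted p = 0.00385) and chi-miR-16a-5p, which did not pass (−1.54, SE 0.55, adjusted p = 0.0631).

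Among markers of other cells, 5 of 11 tested entries of the epithelial miR-200, miR-141 and miR-429 and 3 of 7 of the gland miRNAs miR-148 and miR-375 rose, and 0 fell. Epithelial miRNAs took 0.365% to 4.66% of counts in the youngest goats, then 9.17% to 10.5% and 9.51% to 10.6% in the older groups, and gland miRNAs 1.38% to 8.53%, 14.2% to 16.8% and 16.9% to 17.9%. Both low ends at 1 month were library 2, where libraries 1 and 3 held 4.66% and 3.23% epithelial and 8.53% and 6.48% gland. Mesenchymal miRNAs took 1.66% of counts in library 2 at 1 month, against 10.7% and 13.6% in libraries 1 and 3. Mesenchymal miR-143, miR-145, miR-199 and miR-214 had 1 of 19 higher and 0 lower, endothelial miR-126 and red cell miR-144, miR-451 and miR-486 0 of 4 and 0 of 7 in either direction, and muscle miR-1, miR-133, miR-206 and miR-499 2 of 9 higher. Between 1 and 24 months 2 of 7 red cell entries fell (median −1.44) and 1 of 4 endothelial, 6 of 11 epithelial and 4 of 7 gland entries rose, with mesenchymal and muscle entries again at 1 of 19 and 2 of 9 higher. The lists of miR-142, miR-181, miR-17-92, miR-15/16 and miR-128 had the same counts lower as at 12 months. Against 1 month, 13.2% of all entries were lower and 5.98% higher at 12 months, and 17.5% lower and 8.75% higher at 24 months. All lists had counts at every age. The part of these shifts in the levels of the 4 families was not tested.

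The entries whose profile over the 9 libraries was most like that of each main member were found by Pearson's r of log2(CPM + 1), among 443 named entries of at least 10 CPM. All points share the step from 1 month to the later ages, so r is a description of likeness with no test. For chi-miR-150 they were chi-miR-708-5p (r = 0.981), chi-let-7i-5p (0.974) and miR-142-x (0.973). For chi-miR-155-5p they were chi-miR-708-5p (0.991), miR-142-x (0.984) and miR-3969-x (0.983). chi-miR-342-3p was most like chi-miR-505-3p (0.994), chi-miR-128-3p (0.976) and miR-3969-x (0.976). chi-miR-146a was most like miR-149-x (0.893), chi-miR-140-3p (0.855) and chi-miR-532-5p (0.846), and no entry reached 0.9 with it, against 28, 54 and 60 entries with chi-miR-150, chi-miR-155-5p and chi-miR-342-3p. Within the 6 libraries of 12 and 24 months, r of chi-miR-150 with these 3 was 0.71, 0.82 and 0.29 in the order given. That of chi-miR-155-5p was 0.81, 0.42 and 0.49, that of chi-miR-342-3p 0.93, 0.62 and 0.47, and that of chi-miR-146a 0.92, 0.82 and 0.69.

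chi-miR-708-5p, named for both chi-miR-150 and chi-miR-155-5p, went from 56.5 ± 28.0 to 3.71 ± 1.00 CPM between 1 and 12 months (−3.93, SE 0.54, adjusted p = 0.00151), and chi-miR-505-3p fell to 46.3 ± 9.60 CPM at 12 months (−1.97, SE 0.41, adjusted p = 0.00907). These falls were near those of chi-miR-150 and of chi-miR-342-3p. As both entries were chosen by r over the same libraries, a similar fall follows from the choice and is no separate evidence.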

How the data were processed

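Small RNA libraries of 9 goats were analysed, 3 per age, from total RNA taken with TRIzol. The deposited table of the authors holds raw read counts per mature miRNA entry, per the file headers, with each entry's sequence and its length in bases (an other, descriptive column). FastQC and Bowtie are named, per the submitters' processing notes, without version or role. Which build and which miRNA database served is not given in the sources used here.

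Members were found by number in the name. Entries with enough counts (edgeR filter, minimum count 10, minimum total 15) left 937 of 2189, and all 9 libraries (8288492 to 13277448 counts) were fitted together under R 4.3.3 by the robust quasi-likelihood test of edgeR 4.0.16, with TMM scaling, age as the only term and 6 residual degrees of freedom, with Benjamini-Hochberg adjustment over all entries tested and a threshold of 0.05. Family shares and ratios (0.5 added to each count) used exact permutation tests. In simulated data with 937 entries for 12 months against 1 month, the test recovered 8.40% of changes of 2-fold and 50.8% at 4-fold. At 8-fold it recovered 80.4% and at 16-fold 88.8%, with 2.80% of calls false. Each entry had the same mean and dispersion in all libraries, apart from 200 entries changed up or down at random at 12 months. Unequal spread between ages and an outlying library were not simulated, so these rates need not hold for the goats. Alternatives were other scalings, filters and tests (DESeq2 1.42.0, limma 3.58.1), summed forms, single libraries left out and the replicate number as a block. The members, lists and tests were chosen with earlier results of these data known. All tested members were named, with the 3 entries most like each main member. The most abundant entry was also named for each list of miR-142, miR-181, miR-17-92, miR-15/16 and miR-128. RefSeq names (ARS1.2) served for neighbouring genes only.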

Additional observations from a re-analysis of the deposited data

How the results depend on the processing

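The falls of chi-miR-150, miR-150-x, chi-miR-155-5p, miR-155-x and miR-342-y from 1 to 12 months held under all scalings, filters and tests other than the replicate block and on leaving out each library. Scaling moved the median of all entries between 1 and 12 months from -0.02 (TMM) to -0.20 with library size alone, -0.11 with DESeq2 size factors and 0.12 with the upper quartile, and no member changed direction in that comparison. Replicate numbers are shared between ages by separate goats. Correlations of deviations ran from -0.27 to 0.22 over 5 pairs of same-numbered libraries and from -0.33 to 0.26 over the 22 other pairs. So few pairs cannot exclude a condition shared by libraries of the same number. The replicate block adds terms for the numbers, so it has fewer residual degrees of freedom than the 6 of the main fit. Library 1 at 1 month and library 4 at 12 months share their number with no other library, so the block fits them exactly. What fewer calls under the block came from was not tested. With the replicate block 1 of 11 members was called at 12 against 1 month (chi-miR-150), among 4 of 937 entries (0.427%). At 24 against 1 month 3 of 11 were called, among 71 of 937 (7.58%). From 1 to 12 months 285 entries were called by DESeq2. From 12 to 24 months 5 were called with no filter. On leaving out each library, 5 to 9 of the 11 or 12 members tested were called for 12 against 1 month. For 24 against 1 month 4 to 9 were called. Entries called ran from 83 to 218 (8.3% to 22.5% of all tested) and from 116 to 255 (11.5% to 26.4%) in these comparisons. From 12 to 24 months 0 to 2 entries were called.

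Between 12 and 24 months, where no member was called, signs turned with the setting and the cause was not tested. chi-miR-155-5p stood at -0.022 with library size alone, -0.0034 with no filter, -0.34 with the replicate block and -0.12 without 1-month library 2 and 12-month library 4. chi-miR-150 stood at -0.17 and -0.15 in the last 2 of these, chi-miR-342-5p at -0.11 with the block, and miR-342-y at -0.14 when summed with chi-miR-342-3p. With goat-named entries only, the change in the share of miR-155 was -0.000095 percentage points. Leaving out single libraries gave ranges of -0.28 to 0.14 for chi-miR-342-3p, -0.55 to 0.051 for chi-miR-146a, -0.14 to 0.52 for chi-miR-150, -0.89 to 0.41 for chi-miR-146b-5p, -0.12 to 0.54 for chi-miR-155-5p, and -0.0099 to 0.47 for chi-miR-342-5p. They gave -0.00139 to 0.00218 and -0.000853 to 0.00148 percentage points for the shares of miR-150 and miR-155, and log2 ratios of -0.11 to 0.17 for miR-342 to miR-142, -0.074 to 0.38 for miR-150 to miR-155 and -0.11 to 0.50 for miR-155 to miR-342. For 12 against 1 month miR-146-x ran from -1.29 to 0.88. The goat-named ratio to miR-142 was not run, since both miR-142 entries lack the goat prefix.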
